A study of Homo sapiens with 24 samples.

Results

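The transcripts described here encode the machinery that shortens, decaps and degrades mRNA and the proteins that bind 3′ untranslated regions (3′ UTRs) to steer it. They are 58 genes, taken by symbol from the 38849 genes of the deposited table, and all 58 symbols were found. The cells were HMLE, immortalized human mammary epithelial cells, which over-expressed RBMS3, an RNA-binding protein, or expressed LacZ, a bacterial enzyme gene that served as the control. Both lines were given 10 µg/mL actinomycin D, a blocker of transcription, and the study asked which transcripts differ in stability when RBMS3 is over-expressed. The 8 groups were RBMS3 cells at 0, 90, 180 and 360 min of treatment and LacZ cells at the same 4 times, with 3 libraries each. All groups thus share the HMLE background and the drug label, and the 0 min groups are labelled as 0 min of treatment. The titles of the 0 min libraries do not name the drug, unlike those of the later libraries. The sources used here do not give the vector or promoter of the transgenes, or whether each line is a pool or a clone. No label ties the 3 libraries in a group to separate cultures, so each p-value reflects only how far these libraries scatter, and that scatter may be technical.

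Most human mRNAs are degraded by removal of the poly(A) tail, by the PAN2-PAN3 and CCR4-NOT enzymes, followed either by decapping and digestion from the 5′ end by XRN1 or by digestion from the 3′ end by the exosome. Proteins bound to the 3′ UTR choose which mRNAs are taken up by this machinery. The ZFP36 family binds AU-rich elements and recruits CCR4-NOT, ELAVL1 binds similar elements and is known for protecting mRNAs, Argonaute and TNRC6 proteins act for microRNAs, and YTHDF proteins read N6-methyladenosine (m6A). Nonsense-mediated decay, led by UPF1, removes mRNAs with premature stop codons.

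The ZFP36 family is shown by sequence because its own transcripts carry the elements that its proteins bind, and because they were among those that fell most after transcription was blocked. Each line gives 30 bases of the 3′ UTR in the GENCODE v29 annotation of GRCh38, 5′ to 3′ along the transcript and written as DNA, with the 7-base element UAUUUAU, here with T for U, in capitals. The window of ZFP36L1 is chr14:68788076-68788105 on the minus strand, that of ZFP36L2 is chr2:43223211-43223240 on the minus strand, and that of ZFP36 is chr19:39409196-39409225 on the plus strand. The element was searched on the transcript strand only, and every UAUUUAU contains AUUUA. Where a 3′ UTR held several copies, the window richest in A and T was shown.
ZFP36L1: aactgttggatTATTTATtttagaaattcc
ZFP36L2: attgtatgtaaTATTTATttcattaatttc
ZFP36: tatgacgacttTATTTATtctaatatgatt
The whole annotated 3′ UTR held 3 copies of UAUUUAU in ZFP36L1 over 1871 bases, 3 in ZFP36L2 over 1917 bases and 3 in ZFP36 over 713 bases. AUUUA occurred 8, 5 and 5 times in the same 3 genes. The 768-base 3′ UTR of ZC3H12A and the 823-base 3′ UTR of YTHDF2, whose transcripts are described with them, held neither sequence, and that of YTHDF1 held AUUUA 5 times over 1279 bases. In the last 500 bases of the 3′ UTR, searched on the transcript strand, UAUUUAU stood in 8 of 43 members with a 3′ UTR of that length (18.6%), and in 16.5% of 8102 tested genes. AUUUA stood in 27 of 43 members (62.8%), against 64.1% of those genes. UGUANAUA, the Pumilio element, stood in 5 of 43 (11.6%) against 14.9%. AUAUA, an AU-rich sequence of the kind bound by RBMS proteins, stood in 25 of 43 (58.1%) against 49.1%. In these last 500 bases UAUUUAU occurred 1 time in ZFP36L1, 0 times in ZFP36L2 and 3 times in ZFP36. The 43 members include ZFP36, which was not tested for expression and also held AUUUA and AUAUA there. The 8102 genes were all tested, so the sets differ in this. These matches are letters in a window and not sites of binding.

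Values are the authors' normalized counts, which are relative to the rest of a library, so a change with time is a change relative to other transcripts. In bulk cultures, fewer cells of a kind and less RNA per cell cannot be told apart. The libraries summed to 6638187 to 8080428 normalized counts and the transcript files to 4426440 to 9856338 estimated reads. RBMS3 itself stood at 174 to 358 normalized counts in the 12 RBMS3 libraries and 27.6 to 164.8 in the 12 LacZ libraries, with no overlap. Summed over 8 mammary epithelial markers, RBMS3 libraries held 2835 to 9897 normalized counts and LacZ libraries 14363 to 18025. Summed over 6 mesenchymal markers, RBMS3 libraries held 37121 to 50385 and LacZ libraries 7440 to 10232. Leukocyte markers summed to 5.11 to 18.1 in RBMS3 libraries and 18.2 to 55.9 in LacZ libraries, and endothelial markers to at most 13.5 in RBMS3 libraries and 5.79 in LacZ libraries. In the leukocyte list of 4, 2 markers were at 0 in all RBMS3 libraries and 1 in all LacZ libraries, and 1 of 4 endothelial markers was at 0 in each line. The epithelial and mesenchymal levels differ with the line in all comparisons of lines that follow, and their part in the results was not tested. The second LacZ library at 0 min stood apart (lowest Pearson r within its group 0.909 across genes, against at least 0.937 in the other groups).

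Differences were tested with limma on log2(normalized count + 1), with Benjamini-Hochberg adjustment over 12096 genes with a mean of at least 10. A gene was called at an adjusted p under 0.05, and log2 differences are given ± SE. Of the 58 members, 56 passed the minimum. EDC4, a scaffold of decapping, had a mean of 8.35 normalized counts (0 to 23.6 in RBMS3 libraries, against 0 to 38 in LacZ libraries), and ZFP36 a mean of 7.40, so neither was tested. A second property of the table bears on single members. In 12 libraries with an undisputed transcript file, the factor between table and estimated reads ranged over the libraries by a median of 1.25-fold across 8206 genes and 1.66-fold across 50 members, and it followed the mean transcript length of the gene that Salmon assigned. For 23 members the factor was matched by length and ranged under 1.5-fold. For 24 others matched by length, a shift in assigned isoforms can move the table value without a like move in reads. AGO1, PABPC1 and PABPC4 were not matched by length, and members such as IGF2BP1, DCP1B, PARN and ZC3H12A had no factor. A single factor given beside a member is that of RBMS3 cells at 90 to 360 min relative to LacZ cells at 0 min. One under 1 lowers the table value in those RBMS3 cells at equal reads. How much of a line difference this makes up was not tested.

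Members of the decay machinery were mostly lower in RBMS3 cells where they differed between the lines. Averaged over the 4 times, 8 of 56 members were higher in RBMS3 cells (27.9% of all tested genes) and 25 were lower (29.7%), with 57.6% of all genes called in either direction. The median log2 difference of the members was -0.22, against -0.02 over all genes tested. With libraries scaled to ribosomal protein genes the split was 4 higher and 34 lower over the 4 times, and 2 and 27 at 0 min. That scaling also lowered the median of all genes over the 4 times. The share of all genes called under it is not given, so this split has no background beside it. At 0 min, 5 members were higher and 19 lower, while 18.6% of all genes were higher, 18.9% lower and 37.5% either. The 90 min counts were 3 higher and 11 lower, beside 14.9%, 15% and 29.8% of all genes. The 180 min counts were 3 higher and 16 lower, beside 16.2%, 16.8% and 33.1%. The 360 min counts were 4 higher and 10 lower, beside 17.5%, 17.7% and 35.2%. At 360 min the share of members called lower was therefore near that of all genes, and the share of members called higher lay below that of all genes at all 4 times. DCP1B and LSM1 were higher at all 4 times (8.78% of all genes, and 17% in either direction), and UPF3B, SMG5, RC3H1, AGO2, IGF2BP1, IGF2BP3, YTHDF3 and PABPC1 were lower at all 4 (8.25%). DCP1B passed the minimum for testing only through the RBMS3 libraries, where it is high, so its calls are not independent of that filter. With 1 library left out, DCP1B, LSM1, AGO2 and YTHDF3 kept all 4 calls, and the other 6 lost a call at 1 or more of the times. With libraries scaled to ribosomal protein genes, LSM1 was not called at 0 min (0.26, adjusted p = 0.198, against 0.56), and neither were EXOSC7 (0.23, adjusted p = 0.366, against 0.53) and ZFP36L2 (0.62, adjusted p = 0.176, against 0.92). In 2 of these, DCP1B and LSM1, the 12 RBMS3 libraries all lay above the 12 LacZ libraries (6.08% of all genes, and 12.1% in either direction), and in RC3H1, AGO2 and IGF2BP1 they all lay below (5.99%).

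**Figure D1:**
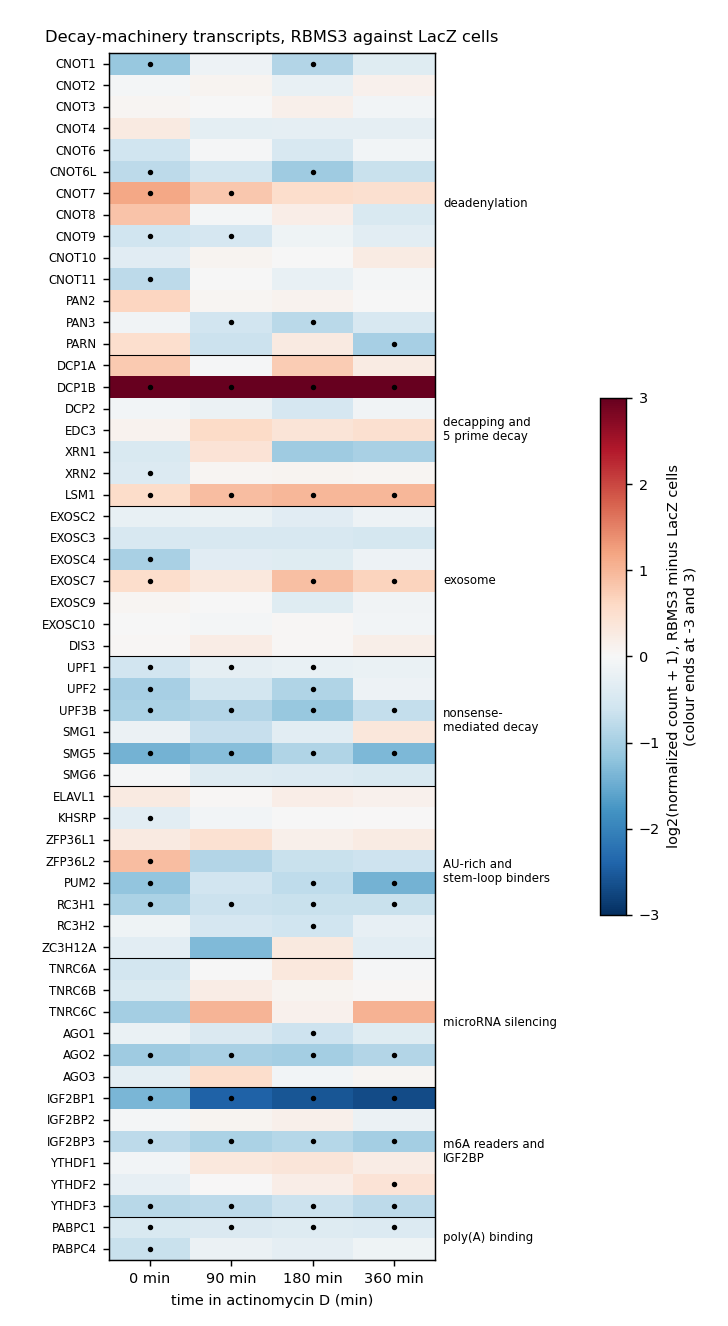
Log2(normalized count + 1) in RBMS3 minus LacZ cells for the 56 tested members (rows, grouped by role) at 0, 90, 180 and 360 min of actinomycin D (columns). Red is higher in RBMS3 cells, blue is lower, colour ends at -3 and 3, and dots mark an adjusted p under 0.05. DCP1B and LSM1 are red with a dot at all 4 times, and 8 members are blue with a dot at all 4.

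Among the m6A readers and IGF2BP proteins, 1 of 6 was higher and 3 were lower in RBMS3 cells over the 4 times. IGF2BP1, which binds and stabilizes m6A-marked and other mRNAs, stood at 10.9 to 160.4 with a median of 72.5 in the 12 RBMS3 libraries, against 225 to 484 with a median of 329.9 in the 12 LacZ libraries. The lines did not overlap, and the difference was -2.26 ± 0.23, adjusted p = 4.08e-08. IGF2BP1 had 109, 145 and 160.4 in RBMS3 cells and 449, 291 and 340 in LacZ cells at 0 min, and 67.9, 65.8 and 10.9 in RBMS3 cells and 236, 225 and 271 in LacZ cells at 360 min. All 3 RBMS3 libraries were below all 3 LacZ libraries at each of these times. Its log2 difference was -1.37 ± 0.47, adjusted p = 0.0253 at 0 min and -2.69 ± 0.47, adjusted p = 0.000118 at 360 min. The call at 0 min ended without the first LacZ or the first RBMS3 library at that time. IGF2BP3, its close relative, stood at 270.1 to 479 with a median of 424 in the 12 RBMS3 libraries, against 475 to 1117 with a median of 714 in the 12 LacZ libraries, so the lines overlapped narrowly. Its difference was -0.90 ± 0.12, adjusted p = 1.24e-06, and its length factor ranged 1.97-fold. YTHDF3, an m6A reader, stood at 339.9 to 696 with a median of 479 in the 12 RBMS3 libraries, against 641 to 997 with a median of 885 in the 12 LacZ libraries, with a difference of -0.77 ± 0.07, adjusted p = 1.11e-08. YTHDF1 differed by 0.21 ± 0.08, adjusted p = 0.0358, which ended when libraries were scaled to ribosomal protein genes (0.04), and it was not called in 12 of 24 fits with 1 library left out (0.17 to 0.24). IGF2BP2, of the same family, and YTHDF2 did not pass (adjusted p = 0.998 and 0.237).

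Among the microRNA effectors, 0 of 6 were higher and 2 were lower. AGO2, the Argonaute that can cleave its targets, stood at 529 to 915 with a median of 764 in the 12 RBMS3 libraries, against 984 to 1992 with a median of 1444 in the 12 LacZ libraries. AGO2 had 574, 579 and 529 in RBMS3 cells and 1253, 984 and 1293 in LacZ cells at 0 min, and 793, 915 and 839 in RBMS3 cells and 1759, 1415 and 1502 in LacZ cells at 360 min. Every RBMS3 library was below every LacZ library over all times, with a difference of -0.98 ± 0.06, adjusted p = 9.01e-12. AGO2 had a length factor that ranged only 1.07-fold. AGO1 stood at 146 to 275 with a median of 203 in the 12 RBMS3 libraries, against 201 to 369 with a median of 268 in the 12 LacZ libraries, with a difference of -0.40 ± 0.10, adjusted p = 0.00132, and its table values could not be matched to reads by length. TNRC6A, TNRC6B and TNRC6C, the GW182 proteins that link Argonaute to CCR4-NOT, and AGO3 did not pass over the 4 times, with differences of -0.07, -0.03, 0.29 and 0.05.

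Of 8 tested AU-rich and stem-loop binders, 1 was higher and 4 were lower. RC3H1 (Roquin-1), which binds stem-loops and promotes decay, stood at 219.5 to 304 with a median of 245 in the 12 RBMS3 libraries, against 311 to 886 with a median of 401 in the 12 LacZ libraries. The first LacZ library at 0 min was the highest at 886, and the lines did not overlap. The difference was -0.72 ± 0.12, adjusted p = 2.6e-05. Its call at 90 min was near the threshold (adjusted p = 0.0495), and it was not called in 6 of 6 fits with 1 library left out (-0.69 to -0.59). At 180 min it was not called in 4 of 6 fits with 1 library left out (-0.79 to -0.56), and at 360 min it was not called in 5 of 6 fits with 1 library left out (-0.75 to -0.58). RC3H1 had a length factor of 0.719 in RBMS3 cells at 90 to 360 min relative to LacZ cells at 0 min. Its relative RC3H2 stood at 325 to 866 with a median of 462 in the 12 RBMS3 libraries, against 343 to 812 with a median of 678 in the 12 LacZ libraries, and differed by -0.37 ± 0.11, adjusted p = 0.00918 with a factor of 1.64. PUM2, a Pumilio protein that recruits deadenylation, stood at 87.1 to 255 with a median of 189 in the 12 RBMS3 libraries, against 231 to 747 with a median of 318 in the 12 LacZ libraries and differed by -0.99 ± 0.13, adjusted p = 2.24e-06, and its factor was 0.577. ZFP36L1 stood at 567 to 2769 with a median of 778 in the 12 RBMS3 libraries, against 424 to 2832 with a median of 657 in the 12 LacZ libraries, and differed by 0.29 ± 0.09, adjusted p = 0.011, a call that ended with libraries scaled to ribosomal protein genes (0.12). KHSRP, a decay-promoting binder of AU-rich elements, differed by -0.10 ± 0.03, adjusted p = 0.0115. ELAVL1, ZFP36L2 and ZC3H12A did not pass, at 0.16, -0.31 and -0.41. The factors of RC3H1 and PUM2 lower their table values in RBMS3 cells at equal reads, while that of RC3H2 raises it. Their part in these differences was not tested.

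Of 6 nonsense-mediated decay factors, 0 were higher and 5 were lower. SMG5, which brings decay enzymes to phosphorylated UPF1, stood at 76 to 218 with a median of 107 in the 12 RBMS3 libraries, against 182 to 409 with a median of 284 in the 12 LacZ libraries. SMG5 overlapped between the lines, and its difference was -1.23 ± 0.15, adjusted p = 6.72e-07. Its length factor ranged 2.27-fold. UPF3B, which joins UPF2 to the exon junction complex, stood at 263 to 461 with a median of 330.4 in the 12 RBMS3 libraries, against 459.7 to 863 with a median of 601 in the 12 LacZ libraries, where a single RBMS3 library crossed the lowest LacZ library. UPF3B differed by -0.92 ± 0.11, adjusted p = 4.25e-07. UPF1, the helicase at the centre of the pathway, stood at 598 to 753 with a median of 682 in the 12 RBMS3 libraries, against 739 to 979.7 with a median of 848 in the 12 LacZ libraries and differed by -0.32 ± 0.04, adjusted p = 2.06e-06, with a factor range of 1.08-fold. UPF2 stood at 204 to 487 with a median of 297 in the 12 RBMS3 libraries, against 303 to 961 with a median of 493 in the 12 LacZ libraries, and differed by -0.65 ± 0.16, adjusted p = 0.00146 with a factor of 0.684. SMG6, an endonuclease, stood at 95.7 to 175 with a median of 134 in the 12 RBMS3 libraries, against 122 to 234 with a median of 167 in the 12 LacZ libraries, and differed by -0.32 ± 0.11, adjusted p = 0.02. SMG1, the kinase that phosphorylates UPF1, did not pass (-0.21). The factor of UPF2 lowers its table value in RBMS3 cells at equal reads, and its part in the difference was not tested.

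Of 14 deadenylation members, 1 was higher and 5 were lower. CNOT7, a catalytic subunit of CCR4-NOT, was the higher one, at 1674 to 4142 with a median of 2429 in the 12 RBMS3 libraries, against 1134 to 2551 with a median of 1447 in the 12 LacZ libraries. CNOT7 had 4142, 3189 and 1674 in RBMS3 cells and 1433, 1134 and 1222 in LacZ cells at 0 min, without overlap, and 2669, 2750 and 2496 in RBMS3 cells and 1658, 1605 and 2551 in LacZ cells at 360 min, with overlap. The difference over all times was 0.74 ± 0.12, adjusted p = 1.65e-05, and the length factor of CNOT7 ranged 1.83-fold. CNOT6L, another catalytic subunit, stood at 74.9 to 236 with a median of 129 in the 12 RBMS3 libraries, against 142 to 450 with a median of 216 in the 12 LacZ libraries, and differed by -0.77 ± 0.15, adjusted p = 0.000185 with a length factor of 0.708. CNOT1, the scaffold, stood at 379.8 to 848 with a median of 636 in the 12 RBMS3 libraries, against 615 to 1677 with a median of 916 in the 12 LacZ libraries, and differed by -0.63 ± 0.15, adjusted p = 0.0013 with a factor of 0.742. PAN3, which partners the PAN2 nuclease, stood at 41.4 to 79.5 with a median of 54.2 in the 12 RBMS3 libraries, against 56.9 to 95.3 with a median of 79.1 in the 12 LacZ libraries and differed by -0.49 ± 0.11, adjusted p = 0.000639, and its factor ranged 1.18-fold. The factors of CNOT6L and CNOT1 lower their table values in RBMS3 cells at equal reads, and their part in the differences was not tested. CNOT9 differed by -0.38 (adjusted p = 6.63e-05) and CNOT11 by -0.27 (adjusted p = 0.0011). CNOT2, CNOT3, CNOT4, CNOT6, CNOT8, CNOT10, PAN2 and PARN did not pass over the 4 times, with differences between -0.30 and 0.20.

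Of 7 tested members of decapping and 5′ decay, 4 were higher and 1 was lower, and 2 of the 4, DCP1A (0.28, adjusted p = 0.18) and EDC3 (0.22, adjusted p = 0.197), were not called with libraries scaled to ribosomal protein genes. LSM1, a subunit of the LSM1-7 ring that activates decapping, stood at 237 to 448 with a median of 316 in the 12 RBMS3 libraries, against 135 to 213 with a median of 178 in the 12 LacZ libraries. LSM1 had 252, 246 and 237 in RBMS3 cells and 156, 186 and 156 in LacZ cells at 0 min, and 448, 378 and 397 in RBMS3 cells and 213, 182 and 212 in LacZ cells at 360 min, and the lines did not overlap at any time. The difference was 0.87 ± 0.08, adjusted p = 3.5e-09, and the length factor ranged 1.01-fold. DCP1B, a cofactor of the decapping enzyme, was measured at low values of 11.1 to 39.2 with a median of 22.3 in the 12 RBMS3 libraries, against 0 to 7.68 with a median of 0.498 in the 12 LacZ libraries. DCP1B was at 0 in 6 LacZ libraries and in none of the RBMS3 libraries, and its fitted difference was 3.60 ± 0.39, adjusted p = 9.06e-08, which at such values depends on the pseudocount. Its mean over all libraries was 12.7, and it passed the minimum of 10 only through the RBMS3 libraries. DCP1A, another decapping cofactor, stood at 67 to 329 with a median of 139 in the 12 RBMS3 libraries, against 66.2 to 256 with a median of 98.5 in the 12 LacZ libraries, and differed by 0.44 ± 0.18, adjusted p = 0.0363. EDC3, an enhancer of decapping, stood at 93.3 to 243 with a median of 143 in the 12 RBMS3 libraries, against 61 to 146 with a median of 114 in the 12 LacZ libraries, and differed by 0.39 ± 0.15, adjusted p = 0.0307. XRN1, the main 5′ exonuclease, stood at 93.8 to 290.4 with a median of 198 in the 12 RBMS3 libraries, against 115 to 550.1 with a median of 294 in the 12 LacZ libraries, and differed by -0.52 ± 0.21, adjusted p = 0.0422. All 3 overlapped between the lines, and the length factor ranged 3.02-fold in DCP1A, 1.97-fold in EDC3 and 3.21-fold in XRN1. For DCP1A it was not called in 11 of 24 fits with 1 library left out (0.31 to 0.53), for EDC3 it was not called in 6 of 24 fits with 1 library left out (0.29 to 0.45), and for XRN1 it was not called in 13 of 24 fits with 1 library left out (-0.64 to -0.42). Without the second LacZ library at 0 min the adjusted p of these 3 was 0.0598, 0.0528 and 0.0781. DCP2, the decapping enzyme, and XRN2 did not pass (-0.22 and -0.05).

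Of 7 exosome members, 1 was higher and 3 were lower. EXOSC7, a core subunit, stood at 339 to 683 with a median of 505 in the 12 RBMS3 libraries, against 165 to 402 with a median of 354 in the 12 LacZ libraries and differed by 0.60 ± 0.10, adjusted p = 1.51e-05. The other 3 were lower. EXOSC3 stood at 80.0 to 199.8 with a median of 137 in the 12 RBMS3 libraries, against 115 to 284 with a median of 178 in the 12 LacZ libraries, and differed by -0.49 ± 0.12, adjusted p = 0.00218. EXOSC4 stood at 211 to 367 with a median of 255 in the 12 RBMS3 libraries, against 271 to 608 with a median of 395 in the 12 LacZ libraries, and differed by -0.46 ± 0.08, adjusted p = 2.98e-05. EXOSC2 stood at 226 to 402 with a median of 293 in the 12 RBMS3 libraries, against 245 to 446 with a median of 356 in the 12 LacZ libraries, and differed by -0.24 ± 0.08, adjusted p = 0.0187. All 4 subunits overlapped between the lines, and the length factor of EXOSC7 ranged 1.54-fold. The catalytic subunits DIS3 and EXOSC10, and EXOSC9, did not pass (0.12, -0.03 and -0.10). Both cytoplasmic poly(A)-binding proteins, which coat the tail, were lower. PABPC1 stood at 22426 to 42844 with a median of 35105 in the 12 RBMS3 libraries, against 24998 to 56775 with a median of 46376 in the 12 LacZ libraries, and differed by -0.42 ± 0.06, adjusted p = 1.86e-06. PABPC4 stood at 2609 to 4216 with a median of 3901 in the 12 RBMS3 libraries, against 3727 to 4832 with a median of 4351 in the 12 LacZ libraries, and differed by -0.31 ± 0.05, adjusted p = 2.47e-05. For both, the table values could not be matched to reads by length. Reads matched to PABPC1 in RBMS3 cells averaged 499 at 360 min and 528 at 90 min, far below its table values. Reads on unmatched transcripts cannot be told apart.

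**Figure D2:**
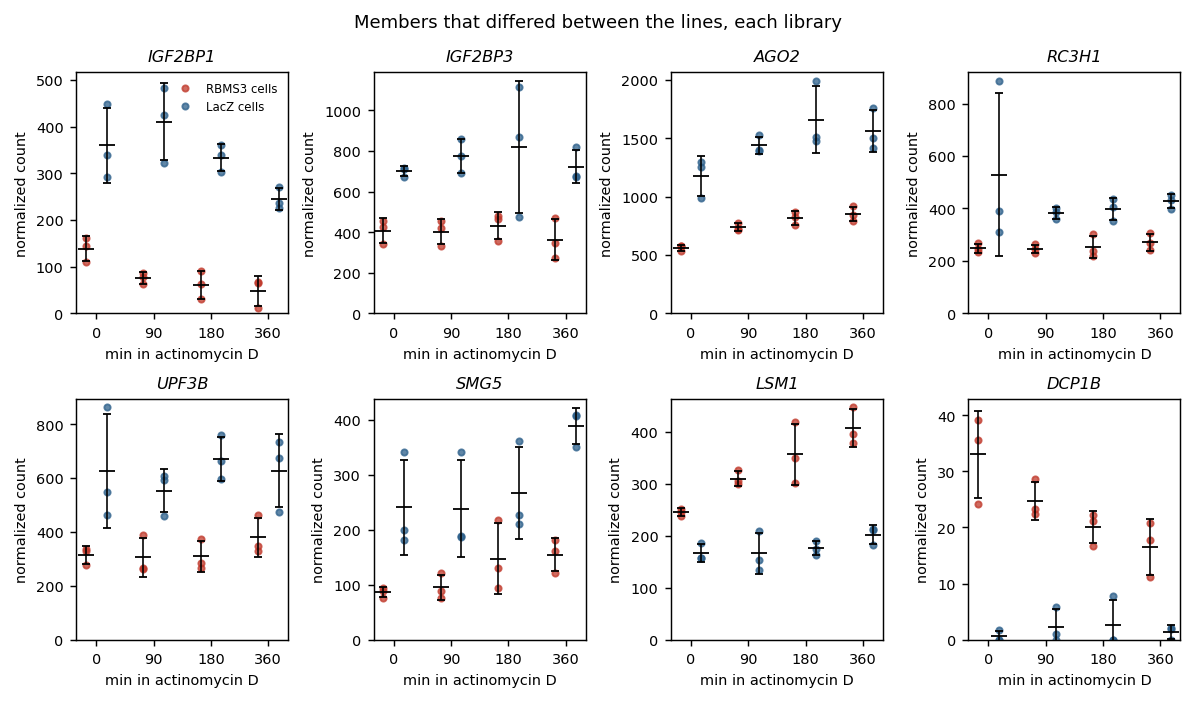
Normalized counts (y axis, from 0) of 8 members in each library against minutes in actinomycin D (x axis), RBMS3 cells in red left of LacZ cells in blue, with black bars for mean ± SD of 3 libraries. IGF2BP1, AGO2 and RC3H1 libraries of RBMS3 cells lie below all LacZ libraries, and LSM1 and DCP1B libraries lie above.

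Results at 0 min that rest on the second LacZ library were recomputed without it. The count of members called at 0 min was then 3 higher and 18 lower. CNOT6L, EXOSC7, UPF2 and ZFP36L2 lost their call at 0 min, at -0.55, 0.23, -0.73 and 0.18. The last of these was 0.92 with it. In this library ZFP36L1, ZFP36L2 and ZFP36 were all low. ZFP36L1 had 2748, 1386 and 2832 normalized counts in the 3 LacZ libraries at 0 min, ZFP36L2 had 1320, 277 and 1246, and ZFP36 had 23.1, 6.11 and 42.3, the second value of each being that library.

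After 360 min of actinomycin D, members changed in both directions relative to the rest of the library. The deepest fitted falls were in the group of AU-rich and stem-loop binders. The deepest of these, of ZC3H12A, is of a member that passed the minimum for testing only through its 0 min libraries. In RBMS3 cells, 10 of 56 members were higher at 360 than at 0 min (19.1% of all genes) and 15 were lower (18.6%, and 37.6% either way), with a median of -0.17 against -0.01 over all genes. In LacZ cells, 5 were higher (14.9%) and 12 lower (13.6%, and 28.5% either way), with a median of -0.13 against 0.03. From 0 to 90 min, 6 were higher (7.99%) and 4 lower (6.52%, and 14.5% either way) in RBMS3 cells. In LacZ cells 1 was higher (3.44%) and 3 were lower (2.74%, and 6.18% either way). From 0 to 180 min, 10 were higher (13.5%) and 8 lower (12.4%, and 25.9% either way) in RBMS3 cells. In LacZ cells 3 were higher (7.75%) and 7 lower (6.87%, and 14.6% either way). At 360 min the share of members higher lay near that of all genes in RBMS3 cells and below it in LacZ cells. The share lower lay above that of all genes in both lines. The comparisons of a line share its 0 min libraries. Called in both lines at 360 min were KHSRP, AGO2 and PABPC1 as higher (8.66% of all genes), and CNOT2, CNOT6L, SMG1, ZFP36L1, ZFP36L2, PUM2, ZC3H12A, YTHDF1, YTHDF2 and YTHDF3 as lower (9.4%).

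The higher values depend on the scaling. With libraries scaled to 82 ribosomal protein genes, the median change of all genes from 0 to 360 min stood at -0.39 for RBMS3 cells and -0.49 for LacZ cells, and -0.18 for the line difference over the 4 times. Of the 10 members higher in RBMS3 cells, KHSRP and PABPC1 were still called there and the other 8 were not, and UPF1 turned to -0.14. The table values of PABPC1 could not be matched to reads by length. None of the 5 members higher in LacZ cells were called higher, with KHSRP at -0.26 and AGO2 at -0.12. Under that scaling 2 members were higher and 23 lower in RBMS3 cells, and 0 higher and 31 lower in LacZ cells. The medians of all genes moved down as well, and the share of all genes called under that scaling is not given.

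Of 8 tested AU-rich and stem-loop binders, 1 was higher and 4 lower at 360 min in RBMS3 cells, and 2 were higher and 4 lower in LacZ cells. ZFP36L1, which promotes decay of AU-rich mRNAs, had 2648, 2639 and 2769 at 0 min, 848, 930.4 and 1091 at 90 min, 685, 708 and 661 at 180 min, then 569.8, 602 and 567 at 360 min in RBMS3 cells. In LacZ cells it had 2748, 1386 and 2832 at 0 min, 672, 703 and 694 at 90 min, 643, 629 and 574 at 180 min, then 424, 604 and 451 at 360 min. All libraries at 90 min and later were below all 0 min libraries in both lines, and most of the fall had occurred by 90 min. The change to 360 min was -2.21 ± 0.18, adjusted p = 1.05e-08 in RBMS3 cells and -2.18 ± 0.18, adjusted p = 2.45e-08 in LacZ cells. ZFP36L2 had 1588, 1348 and 1442 at 0 min, 252, 301 and 245 at 90 min, 234, 227 and 211 at 180 min, then 137, 154 and 192 at 360 min in RBMS3 cells. ZFP36L2 had 1320, 277 and 1246 at 0 min, 593, 491 and 399 at 90 min, 337, 358 and 369 at 180 min, then 241, 248 and 249.7 at 360 min in LacZ cells. In LacZ cells the second library at 0 min lay among the later ones. Libraries of RBMS3 cells were the lower ones from 90 min on, without overlap, but the line difference was not called at 90, 180 or 360 min. The change to 360 min was -3.19 ± 0.35, adjusted p = 5.33e-07 in RBMS3 cells and -1.64 ± 0.35, adjusted p = 0.00155 in LacZ cells. Without the second LacZ library at 0 min the value in LacZ cells was -2.38.

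ZC3H12A (Regnase-1), an endonuclease that cleaves stem-loops in inflammatory mRNAs, fell to 3.79, 6.29 and 0 at 360 min, against 55.8, 55.6 and 51.3 at 0 min, in RBMS3 cells. In LacZ cells it fell to 6.13, 8.66 and 0, against 68, 69.6 and 64.2. All later values of both lines were at or under 9.54, a level at which the fitted changes (-4.08 in RBMS3 cells and -4.06 in LacZ cells) depend on the pseudocount. With a mean of 18.2 over all libraries, ZC3H12A passed the minimum of 10 only through its 0 min libraries. ZFP36, below the minimum for testing, had 33.1, 37.5 and 21.5 at 0 min in RBMS3 cells and at most 2.94 later. PUM2 changed by -1.05 ± 0.27, adjusted p = 0.00421 in RBMS3 cells and -0.79 ± 0.27, adjusted p = 0.0319 in LacZ cells. Without the second LacZ library at 0 min the LacZ change of PUM2 was -0.45 (adjusted p = 0.216), and in all it was not called without the second LacZ library at 0 min or without the first LacZ library at 360 min or without the second LacZ library at 360 min (-1.06 to -0.45 with 1 library left out). KHSRP had 9470, 9753 and 8939 at 360 min, against 5927, 6257 and 6567 at 0 min in RBMS3 cells, a change of 0.59 ± 0.06, adjusted p = 4.84e-07, and 9437, 9231 and 9233 at 360 min, against 7386, 7735 and 8089 at 0 min in LacZ cells, a change of 0.27 ± 0.06, adjusted p = 0.00394, the sign of which turned under ribosomal protein scaling. ELAVL1 (-0.08 in RBMS3 cells and 0.07 in LacZ cells) and RC3H1 (0.12 in RBMS3 cells and -0.16 in LacZ cells) did not pass, and RC3H2 was called in LacZ cells at 0.67, where it was not called in 5 of 6 fits with 1 library left out (0.43 to 0.95).

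Of 6 m6A readers and IGF2BP proteins, 0 were higher in either line at 360 min, with 4 lower in RBMS3 cells and 3 lower in LacZ cells. YTHDF2, which recruits CCR4-NOT to m6A-marked mRNAs, had 591, 566 and 659.8 at 0 min, 441, 545 and 582 at 90 min, 374, 317 and 341 at 180 min, then 231, 254 and 271 at 360 min in RBMS3 cells. In LacZ cells it had 739, 747 and 678 at 0 min, 453, 513 and 589 at 90 min, 248, 337 and 319.8 at 180 min, then 185, 189 and 189 at 360 min. At 360 min the RBMS3 libraries were all above the LacZ libraries, a difference that was called. At 0 min they were all below, a difference that was not called. The change was -1.26 ± 0.13, adjusted p = 2.58e-07 in RBMS3 cells and -1.93 ± 0.13, adjusted p = 1.23e-09 in LacZ cells. YTHDF1 had 163, 159.7 and 183 at 360 min, against 354, 525 and 419.7 at 0 min in RBMS3 cells and 137, 152 and 141 at 360 min, against 428, 531 and 397 at 0 min in LacZ cells. Its change was -1.34 ± 0.16, adjusted p = 2.03e-06 in RBMS3 cells and -1.64 ± 0.16, adjusted p = 2.69e-07 in LacZ cells. YTHDF3 changed by -0.39 ± 0.15, adjusted p = 0.0386 in RBMS3 cells, where it was not called in 4 of 6 fits with 1 library left out (-0.51 to -0.26). YTHDF3 changed by -0.43 ± 0.15, adjusted p = 0.0328 in LacZ cells, where it was not called in 4 of 6 fits with 1 library left out (-0.54 to -0.35). IGF2BP1 changed by -1.85 ± 0.47, adjusted p = 0.00357 in RBMS3 cells, where it had 67.9, 65.8 and 10.9 at 360 min, against 109, 145 and 160.4 at 0 min, and by -0.54 (adjusted p = 0.427) in LacZ cells. The third RBMS3 library at 360 min was the low one, and without it the change was -1.02 (adjusted p = 0.0193). The difference between the lines in this change was not called (-1.31 ± 0.66, adjusted p = 0.26). IGF2BP2 and IGF2BP3 did not pass in either line, with changes of 0.10 in RBMS3 cells and 0.22 in LacZ cells for IGF2BP2 and -0.19 in RBMS3 cells and 0.04 in LacZ cells for IGF2BP3.

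**Figure D3:**
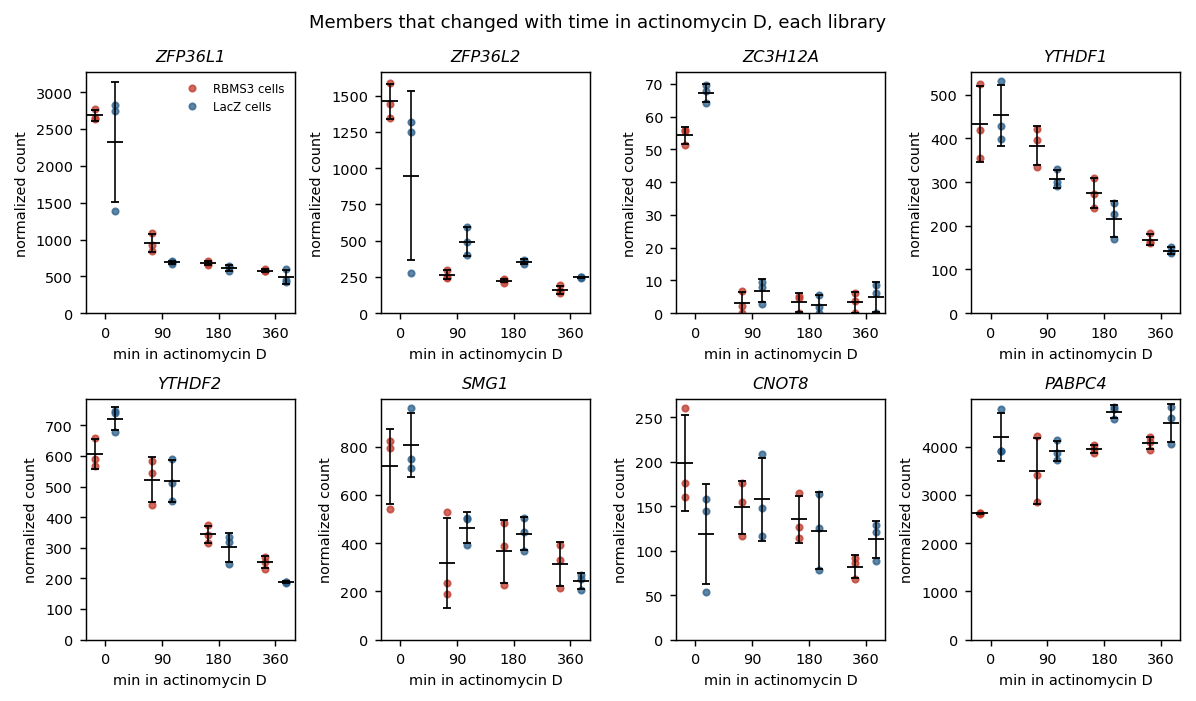
Normalized counts (y axis, from 0) of 8 members in each library against minutes in actinomycin D (x axis), RBMS3 cells in red left of LacZ cells in blue, with black bars for mean ± SD of 3 libraries. ZFP36L1, ZFP36L2 and ZC3H12A stand far below their 0 min values by 90 min in RBMS3 cells, while YTHDF1 and YTHDF2 decline over the whole course, and 1 LacZ library at 0 min is low for ZFP36L1 and ZFP36L2.

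Of 6 nonsense-mediated decay factors, 2 were higher and 1 lower in RBMS3 cells, and 0 were higher and 1 lower in LacZ cells. SMG1 had 328, 394 and 215 at 360 min, against 541, 822 and 793 at 0 min in RBMS3 cells and 252, 206 and 268 at 360 min, against 710.2, 958 and 749 at 0 min in LacZ cells. Its change was -1.22 ± 0.32, adjusted p = 0.00447 in RBMS3 cells and -1.73 ± 0.32, adjusted p = 0.000337 in LacZ cells, and its length factor ranged 2.98-fold. SMG5 had 122, 161 and 181 at 360 min, against 93.3, 76.1 and 89.3 at 0 min in RBMS3 cells, without overlap. Its change was 0.82 ± 0.31, adjusted p = 0.041, and it was not called in 5 of 6 fits with 1 library left out (0.70 to 0.98). UPF1 had 732, 753 and 720.3 at 360 min, against 636, 598 and 622 at 0 min in RBMS3 cells. Its change was 0.25 ± 0.09, adjusted p = 0.0271, and it was -0.14 under ribosomal protein scaling, while it was not called in 4 of 6 fits with 1 library left out (0.22 to 0.27). UPF2 (0.06 in RBMS3 cells and -0.78 in LacZ cells), UPF3B (0.26 in RBMS3 cells and 0.03 in LacZ cells) and SMG6 (-0.20 in RBMS3 cells and 0.22 in LacZ cells) did not pass.

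Of 14 deadenylation members, 1 was higher and 4 lower in RBMS3 cells, and 1 was higher and 2 lower in LacZ cells. CNOT8, a catalytic subunit of CCR4-NOT, had 86.5, 91.9 and 67.8 at 360 min, against 161, 176 and 261 at 0 min in RBMS3 cells without overlap, and 88.5, 129 and 121 at 360 min, against 145, 53.8 and 158 at 0 min in LacZ cells with overlap. The change was -1.25 ± 0.35, adjusted p = 0.00763 in RBMS3 cells and 0.05 ± 0.35, adjusted p = 0.938 in LacZ cells, and the difference between them was not called (adjusted p = 0.12). The LacZ value of 53.8 is the second library at 0 min, which stood apart. All LacZ values at 360 min were below the other values at 0 min, 145 and 158. The change of CNOT8 without that library is not given. CNOT6L had 124, 74.9 and 120.5 at 360 min, against 134, 209 and 236 at 0 min in RBMS3 cells and 207, 152 and 142 at 360 min, against 276, 450 and 275 at 0 min in LacZ cells. Its change was -0.85 ± 0.30, adjusted p = 0.0319 in RBMS3 cells and -0.97 ± 0.30, adjusted p = 0.0199 in LacZ cells, and in LacZ cells it was not called without the second LacZ library at 0 min or without the second LacZ library at 360 min or without the third LacZ library at 360 min (-1.14 to -0.74 with 1 library left out), while in RBMS3 cells it was not called without the second RBMS3 library at 0 min or without the third RBMS3 library at 0 min or without the second RBMS3 library at 360 min (-1.09 to -0.61 with 1 library left out). CNOT2, a structural subunit, changed by -0.47 in RBMS3 cells and -0.66 in LacZ cells. For RBMS3 cells it was not called without the second RBMS3 library at 0 min or without the second RBMS3 library at 360 min (-0.59 to -0.26 with 1 library left out). CNOT4, a ubiquitin ligase of the complex, changed by -0.83 ± 0.27, adjusted p = 0.0203 in RBMS3 cells, where it was not called in 4 of 6 fits with 1 library left out (-0.99 to -0.73). CNOT11 changed by 0.52 ± 0.13, adjusted p = 0.00321 in RBMS3 cells. PARN, a poly(A)-specific nuclease, had 421, 587 and 515 at 360 min, against 226, 319 and 271 at 0 min in LacZ cells, a change of 0.90 ± 0.33, adjusted p = 0.0462, where it was not called in 5 of 6 fits with 1 library left out (0.77 to 1.03). These table values could not be tied to reads: in the 12 undisputed files, the reads matched to PARN through GENCODE v29 ran from 0 to 132, and were 0 in 3 libraries where the table lists 226, 236 and 239. CNOT1, CNOT3, CNOT6, CNOT7, CNOT9, CNOT10, PAN2 and PAN3 did not pass in either line.

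Of 7 decapping and 5′ decay members, 2 were higher and 1 lower in RBMS3 cells, and 0 were called in LacZ cells. LSM1 had 448, 378 and 397 at 360 min, against 252, 246 and 237 at 0 min in RBMS3 cells and 213, 182 and 212 at 360 min, against 156, 186 and 156 at 0 min in LacZ cells, with changes of 0.73 ± 0.15, adjusted p = 0.000795 in RBMS3 cells and 0.28 ± 0.15, adjusted p = 0.185 in LacZ cells. XRN2, a nuclear 5′ exonuclease, had 1787, 1688 and 1616 at 360 min, against 1144, 1214 and 1248 at 0 min in RBMS3 cells and 1692, 1733 and 1499 at 360 min, against 1437, 1850 and 1568 at 0 min in LacZ cells. Its change was 0.50 ± 0.09, adjusted p = 0.000123 in RBMS3 cells and 0.03 ± 0.09, adjusted p = 0.863 in LacZ cells. DCP1A had 67, 108 and 94.5 at 360 min, against 185, 168 and 215 at 0 min in RBMS3 cells, a change of -1.09 ± 0.35, adjusted p = 0.0187, and it was not called without the third RBMS3 library at 0 min or without the first RBMS3 library at 360 min (-1.23 to -0.89 with 1 library left out). DCP1B, DCP2, EDC3 and XRN1 did not pass in either line. 

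Of 7 exosome members, 1 was higher and 1 lower in RBMS3 cells, and 1 was lower in LacZ cells. EXOSC7 had 556, 551 and 572 at 360 min, against 384, 369 and 339 at 0 min in RBMS3 cells, a change of 0.62 ± 0.19, adjusted p = 0.014, and it was not called without the third RBMS3 library at 0 min (0.57 to 0.66 with 1 library left out). EXOSC3 had 80.0, 80.4 and 113 at 360 min, against 134, 140.1 and 170 at 0 min in RBMS3 cells, a change of -0.70 ± 0.25, adjusted p = 0.0313, and it was not called in 4 of 6 fits with 1 library left out (-0.87 to -0.60). EXOSC4 had 283, 271 and 281 at 360 min, against 387, 608 and 406 at 0 min in LacZ cells, a change of -0.71 ± 0.15, adjusted p = 0.00143, and it was called without each single library in turn (-0.83 to -0.51). PABPC1 had 42844, 38936 and 40454 at 360 min, against 22426, 24541 and 25278 at 0 min in RBMS3 cells, a change of 0.76 ± 0.11, adjusted p = 2.06e-05, and 56775, 54785 and 51181 at 360 min, against 38832, 24998 and 36576 at 0 min in LacZ cells, a change of 0.72 ± 0.11, adjusted p = 6.59e-05. PABPC4 had 4089, 4201 and 3940 at 360 min, against 2628, 2609 and 2631 at 0 min in RBMS3 cells. Its change was 0.64 ± 0.10, adjusted p = 5.3e-05 in RBMS3 cells and 0.10 ± 0.10, adjusted p = 0.514 in LacZ cells. The table values of PABPC1 and PABPC4 could not be matched to reads by length, and reads matched to PABPC1 were far below its table values. Among microRNA effectors AGO2 was higher in both lines (0.60 in RBMS3 cells and 0.41 in LacZ cells, adjusted p = 0.000476 and 0.0131), and that in LacZ cells turned to -0.12 under ribosomal protein scaling. In LacZ cells it was not called without the second LacZ library at 0 min or without the first LacZ library at 360 min (0.29 to 0.48 with 1 library left out). TNRC6A had 468, 789 and 944 at 360 min, against 1310, 969 and 1328 at 0 min in LacZ cells, a change of -0.76 ± 0.27, adjusted p = 0.0415. There it was not called in 4 of 6 fits with 1 library left out (-0.97 to -0.46).

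**Figure D4:**
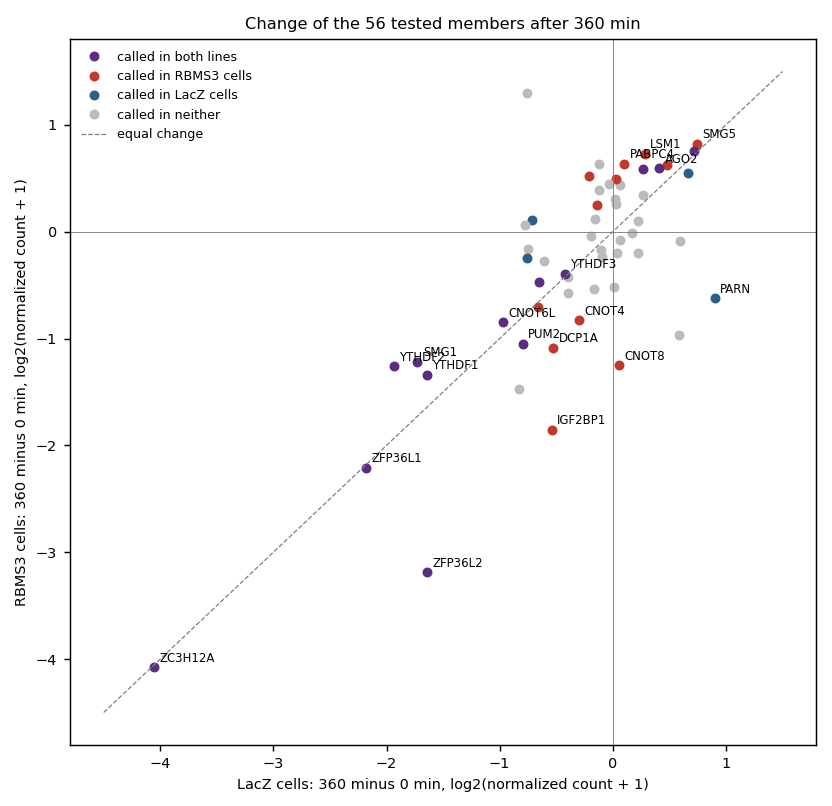
Log2(normalized count + 1) at 360 minus 0 min of the 56 tested members, RBMS3 cells on the y axis and LacZ cells on the x axis, with the dashed line for equal change and colours for the lines in which a member was called. ZFP36L1, ZC3H12A, YTHDF1, YTHDF2 and SMG1 are low in both lines, ZFP36L2 lies below the dashed line, and rises on this scale shrink under ribosomal protein scaling, where AGO2 and KHSRP in LacZ cells and UPF1 in RBMS3 cells change sign.

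The difference between the lines in the change itself was called for few members. From 0 to 90 min, 2 were higher in RBMS3 cells (2.71% of all genes) and 1 lower (2.52%, and 5.23% either way). From 0 to 180 min, 1 was higher (3.45%) and 0 lower (2.91%, and 6.36% either way). From 0 to 360 min, 6 were higher (4.32%) and 1 lower (3.46%, and 7.77% either way), and for the slope over 0, 1.5, 3 and 6 h, 1 was higher (2.93%) and 0 lower (2.24%, and 5.18% either way). YTHDF2 was the member called for its slope, at 0.11 ± 0.03, adjusted p = 0.0376 in log2 per hour, and for the change to 360 min, at 0.67 ± 0.19, adjusted p = 0.0313. For its change to 360 min, it was not called in 8 of 12 fits with 1 library left out (0.62 to 0.74), and for the slope it was not called in 10 of 24 fits with 1 library left out (0.10 to 0.12). Its fall was thus smaller in RBMS3 cells, and its length factor ranged 1.01-fold. For ZFP36L2 the difference at 90 min was -1.80 ± 0.50, adjusted p = 0.0408, a larger fall in RBMS3 cells. Without the second LacZ library at 0 min it was -1.06 (adjusted p = 0.00255), while it was not called in 8 of 12 fits with 1 library left out (-2.18 to -1.06). It did not pass to 180 or 360 min (-1.58 ± 0.50, adjusted p = 0.0675, and -1.54 ± 0.50, adjusted p = 0.0647). XRN2 was called at all 3 intervals, at 0.49, 0.51 and 0.47, and all 3 share its 0 min libraries. CNOT11, EXOSC4, KHSRP and PABPC4 were called to 360 min, at 0.73, 0.82, 0.32 and 0.54, and PARN at -1.52. With 1 library left out of 12, CNOT11 was called in 12 fits, EXOSC4 in 10, KHSRP in 4, PABPC4 in 6, XRN2 in 9 and PARN in 2. Without the second LacZ library at 0 min, PABPC4 was 0.44 (adjusted p = 0.05). In XRN2, CNOT11, EXOSC4, KHSRP and PABPC4 the RBMS3 libraries were the lower ones at 0 min, with line differences of -0.42, -0.79, -0.98, -0.31 and -0.67, and none of the 5 was called between the lines at 360 min (0.05, -0.06, -0.16, 0.01 and -0.14).

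The change from 90 to 360 min in RBMS3 cells could also be tested on estimated reads, since all its transcript files were undisputed. In the deposited values 1 of 56 members was higher (7.62% of all genes) and 7 were lower (8.35%, and 16% either way). On reads, with edgeR's quasi-likelihood test, 4 of 55 were higher (12.1%) and 14 lower (13.5%, and 25.6% either way), and DESeq2 gave the same counts, beside 12.8%, 13.8% and 26.6% of all genes. YTHDF1 had a mean of 169 reads at 360 min against 464 at 90 min, a log2 fold change of -1.24 on reads (edgeR adjusted p = 1.72e-05) and -1.18 on the table. YTHDF2 gave -1.10 on reads and -1.04 on the table, and EXOSC3 -0.88 and -0.91. ZFP36L1 gave -0.78 and -0.71, and ZFP36L2 -0.78 and -0.73, the last not called on the table (adjusted p = 0.185). Members called on reads alone included CNOT8 (-0.90), DCP1A (-0.93), EXOSC9 (-0.59) and IGF2BP3 (-0.38). SMG5 stood at 0.70 on the table and 0.21 on reads, and XRN1 at -0.66 and -0.09. The gap between table and reads had a median of 0.05 on the log2 scale in 23 members with a factor range under 1.5-fold and 0.21 in the other 24.

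**Figure D5:**
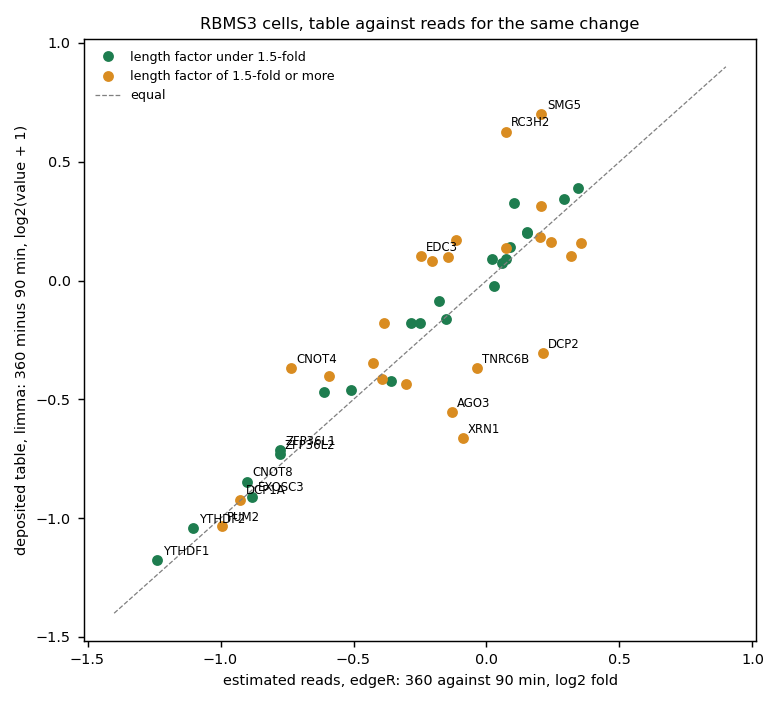
Log2 change from 90 to 360 min in RBMS3 cells for 47 members, on the deposited table (y axis, limma) against estimated reads (x axis, edgeR), with the dashed line for equal values. The 23 members with a length factor under 1.5-fold (green) lie within 0.22 of the line, and the 24 others (orange) lie up to 0.57 away.

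Other genes of the pathway that are not members were taken from a list of 70, of which 69 were tested. Over the 4 times, 14 were higher and 28 lower in RBMS3 cells, with a median of -0.13, beside 8 and 25 of 56 members. Of all genes, 27.9% were higher and 29.7% lower there. DIS3L, a cytoplasmic exosome nuclease, differed by 1.25 ± 0.20, adjusted p = 1.26e-05, SKIC8, of the exosome's SKI complex, by 1.12 ± 0.10, adjusted p = 2.02e-09, and TIA1, which binds U-rich sequences, by 0.89 ± 0.19, adjusted p = 0.000408. LIN28B was listed at 0 in all 12 RBMS3 libraries, and had 34.1, 14.6 and 37.7 in LacZ cells at 0 min, so no fold is given. LSM6, of the LSM1-7 ring, differed by -1.43 ± 0.22, adjusted p = 1.4e-05, and N4BP1 by -1.03 ± 0.12, adjusted p = 1.36e-07. After 360 min, 14 of the 69 were higher (19.1% of all genes) and 17 lower (18.6%) in RBMS3 cells. In LacZ cells 9 were higher (14.9%) and 9 lower (13.6%). BTG1, a regulator of deadenylation, had 83.3, 56.3 and 121 at 360 min, against 1173, 1060 and 1004 at 0 min in RBMS3 cells and 96.8, 93.8 and 99.6 at 360 min, against 644, 892 and 804 at 0 min in LacZ cells. Its change was -3.68 ± 0.20, adjusted p = 2.97e-11 in RBMS3 cells and -2.99 ± 0.20, adjusted p = 1.12e-09 in LacZ cells. SMG8, which binds SMG1, changed by -3.36 in RBMS3 cells and -1.95 in LacZ cells, and both passed. In RBMS3 cells YTHDC1, a nuclear m6A reader, had 132, 707 and 43.2 at 360 min, against 839, 1258 and 1994 at 0 min (adjusted p = 0.0221), and the changes of AGO4, LSM5 and RBMS2 were 2.45, 1.05 and 0.87. In LacZ cells the changes of PABPN1, EXOSC8 and LSM7 were 0.93, 0.81 and 0.80.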

How the data were processed

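RNA was read from the 3′ end with QuantSeq in 24 libraries, per the labels' protocols. The submitters' processing notes name Salmon 1.4.0, Trim Galore 0.6.6 and DESeq2 1.32.0, without their roles. A genome build for the files was not stated in any source used. The authors made and deposited a table of normalized counts (a normalized signal) for 38849 genes, and per the file headers an estimated count and an effective length for each of 231288 transcripts in every library. Of the 24 transcript files, 12 carried a name that differed from the sample they were attached to, and only the other 12 were used beyond a check of depth. Columns were matched to samples by title. Values were taken as log2(normalized count + 1) and a single model of 8 group means was fitted in limma 3.58.1 (R 4.3.3, with a mean-variance trend and no robust step), from which 16 comparisons were drawn. For RBMS3 cells at 360 against 90 min, rounded estimated counts summed by gene were tested with edgeR 4.0.16 and DESeq2 1.42.0. The scripts were tested on simulated data. Members, role groups and lists were chosen with earlier results of these data known. Library values are given for members that passed and whose higher group averaged 50 or more, up to 4 a role group by line difference and 3 by change with time. Members outside this rule, such as DCP1B, ZFP36 and KHSRP, were described after their values were seen. Of other pathway genes, up to 3 that passed with the largest rise and 3 with the largest fall were named, and the value of a further such gene is not reported here. Alternatives were pseudocounts of 0.5 and 5, no filter or a mean of at least 50, other scalings, a replicate block and leaving out each library.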

Additional observations from a re-analysis of the deposited data

Results flagged for a closer look

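For 8 members the change with time in actinomycin D differed between the lines by limma's test of the difference itself. Of all genes, 5.23%, 6.36% and 7.77% were called for the change to 90, 180 and 360 min, and 5.18% for the slope. All values are RBMS3 minus LacZ cells on the log2(normalized count + 1) scale, from 3 libraries a group.

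From 0 to 90 min, CNOT11 differed by 0.77 ± 0.18 (SE), adjusted p = 0.0151. XRN2 differed by 0.49 ± 0.12 (SE), adjusted p = 0.0213 from 0 to 90 min, by 0.51 ± 0.12 (SE), adjusted p = 0.0156 from 0 to 180 min, and by 0.47 ± 0.12 (SE), adjusted p = 0.0207 from 0 to 360 min. ZFP36L2 differed by -1.80 ± 0.50 (SE), adjusted p = 0.0408 from 0 to 90 min, and by -1.06 without the second LacZ library at 0 min.

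From 0 to 360 min, CNOT11 differed by 0.73 ± 0.18 (SE), adjusted p = 0.0163, EXOSC4 by 0.82 ± 0.22 (SE), adjusted p = 0.0223, KHSRP by 0.32 ± 0.09 (SE), adjusted p = 0.0362, and PABPC4 by 0.54 ± 0.15 (SE), adjusted p = 0.0273. YTHDF2 differed by 0.67 ± 0.19 (SE), adjusted p = 0.0313 from 0 to 360 min, and its slope by 0.11 ± 0.03 (SE), adjusted p = 0.0376 in log2 per hour. PARN differed by -1.52 ± 0.47 (SE), adjusted p = 0.0497 from 0 to 360 min, a value that was called in 2 of 12 fits with 1 library left out. The table values of PARN could not be tied to its reads, which ran from 0 to 132 in the 12 undisputed transcript files. With 1 library left out of 12, KHSRP and YTHDF2 were called to 360 min in 4 fits and PABPC4 in 6. EXOSC4 was called to 360 min in 10, XRN2 in 9 and CNOT11 in 12. ZFP36L2 was called to 90 min in 4 of 12 fits. The RBMS3 libraries were the lower ones at 0 min in XRN2, CNOT11, EXOSC4, KHSRP and PABPC4. None of these was called between the lines at 360 min.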

How the results depend on the processing

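Over the 16 comparisons, 208 calls of members were made, and 117 held in all alternatives that tested them. Of 3596 single values of called members under an alternative, 3216 kept direction and call, 376 kept the direction only and 4 turned. All 4 turned when libraries were scaled to ribosomal protein genes, to -0.14 for UPF1 and, for KHSRP and AGO2 in LacZ cells at 360 against 0 min, to -0.26 and -0.12, and for KHSRP at 360 against 90 min in RBMS3 cells to -0.064. Under the same scaling the count of members called became 22 for the line difference at 360 min, 7, 17 and 31 for 90, 180 and 360 against 0 min in LacZ cells, 6 and 8 for the line difference in the change to 90 and 180 min, 7 for the slope, and 21 for 360 against 90 min in RBMS3 cells. edgeR and DESeq2 on reads each called 18 there, against 8. The counts under ribosomal protein scaling have no share of all genes beside them. In limma, the slope called 0 members with no filter on low values (10 of 58 at an unadjusted p under 0.05) and 3 at a mean of at least 50. Leaving out 1 library at a time gave 12 to 15 members for the line difference at 180 min, 1 to 4, 6 to 10 and 11 to 16 for 90, 180 and 360 against 0 min in LacZ cells, 1 to 6, 1 to 4 and 1 to 8 for the line difference in the change to 90, 180 and 360 min, 0 to 3 for the slope and 5 to 7 for 360 against 90 min. With the replicate block, 35 members were called between the lines over the 4 times, against 33, and 25 at 360 against 0 min in RBMS3 cells, against 25. The block ended 8 of the 208 calls and kept 200. Deviations of libraries with the same number had a median r of 0.00165 (-0.111 to 0.116, 84 pairs), so the numbers did not pair the libraries. Among members restricted to a length factor under 1.5-fold, a choice made after seeing the data, 3 of 23 were higher and 12 lower over the 4 times. The share of all genes called under that restriction is not given, so this split has no background. The cause of these shifts was not tested. Precision is limited by 3 libraries a group, by low values of DCP1B and ZC3H12A, and by isoform length in 24 of 47 matched members.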
